A study of Homo sapiens with 4 samples.

Results

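The protein genes of the cytosolic ribosome were followed through transfection of 2 human liver cancer lines with a mimic of the microRNA miR-4730. Members were all gene-named probe sets with a symbol of the RPS or RPL series followed by a digit, and RPLP0, RPLP1, RPLP2 and RPSA. Pseudogenes, the S6 kinases, RPS27L and RPS19BP1 were left out. This gave 57 of 17687 named genes, each with 1 probe set, of which 22 carry a small subunit symbol and 35 a large subunit symbol. Among them were 45 canonical ribosomal proteins (19 small, 26 large), 9 paralogues and 3 readthrough loci that join a ribosomal protein gene to a neighbour. Of 89 protein-coding RefSeq genes that meet the rule, the other 32, RPLP0, RPLP2, RPSA and RPL3 among them, were not analysed here. Probe sets annotated with no gene name or with more than 1 were left out, and none of the rest carried these genes.

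The established lines were Li-7, grown in RPMI-1640, and HEP-G2, grown in DMEM, both with fetal bovine serum, so line and medium cannot be told apart. Each line received either the miR-4730 mimic, delivered with a lipid reagent at 3 nM, 24 h after the cells were seeded, or a commercial negative control oligonucleotide. Biotin-labelled RNA of each of the 4 groups was hybridised to 1 Affymetrix array, without a replicate array in any group. Deposited values are on a log2-like scale, so that a change of 1 unit is read as 2-fold. Pairs of values are given with the control array first and the mimic array second, and the number of arrays limits the precision.

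A ribosome is built from ribosomal RNA and a fixed set of proteins, 1 copy of nearly every protein per particle, with the small subunit reading the messenger RNA and the large subunit joining amino acids. In growing cells the messengers of these proteins are among the most abundant. Most begin with a short run of pyrimidines, the 5′ terminal oligopyrimidine tract, through which mTOR signalling and the binding protein LARP1 set their translation. A microRNA pairs through its seed, bases 2 to 8, with sites in messenger RNAs and lowers their level or translation.

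The mature sequence of the microRNA that was mimicked, with its seed in capitals, is given by RefSeq (GRCh38.p14) at chr17:80419427-80419449 on the plus strand. The chemistry of the synthetic mimic is not given in the sources used here.
hsa-miR-4730: cUGGCGGAgcccauuccaugcca

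RefSeq start sites (GRCh38.p14) were at hand for 50 of the 57 members. RPS15A, which fell under the mimic, was not among them. The windows below run from 30 bases before the start to the first 20 transcribed bases, 5′ to 3′ on the coding strand, and capitals mark a C followed by at least 4 pyrimidines that begins within 5 bases of the start. They are shown for 4 of the members with the lowest mean changes under the mimic and for RPS21 and RPS24, whose values hardly moved, so that both kinds can be read side by side. The window of RPL21 is that of the RefSeq gene, whereas its probe set identifier carries another chromosome, so window and value may belong to different loci.
RPS28: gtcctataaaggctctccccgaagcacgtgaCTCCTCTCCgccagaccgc
RPL10A: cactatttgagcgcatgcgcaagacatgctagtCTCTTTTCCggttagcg
RPL21: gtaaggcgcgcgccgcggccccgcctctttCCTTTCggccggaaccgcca
RPL18: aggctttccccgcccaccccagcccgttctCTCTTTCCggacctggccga
RPS21: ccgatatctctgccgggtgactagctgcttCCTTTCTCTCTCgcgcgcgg
RPS24: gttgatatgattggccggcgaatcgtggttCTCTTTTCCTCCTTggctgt

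The windows lie at chr19:8321466-8321515 (plus strand) for RPS28, chr6:35468371-35468420 (plus) for RPL10A, chr13:27251528-27251577 (plus) for RPL21 and chr19:48619159-48619208 (minus) for RPL18. Those of RPS21 and RPS24 lie at chr20:62387073-62387122 (plus) and chr10:78033833-78033882 (plus). All 6 hold the run. It was found at 34 of 41 canonical members with a start site (82.9%), against 23.6% of 27305 genes in the same table. RPL27, RPL6, RPL9, RPS15, RPS26, RPS29 and RPS4X had none in this window.

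Shorter words were searched on both strands within 25 bases of the start. CTTTCC was present at 34.1% of the canonical members and 5.64% of all genes, and CTCTTT, which can overlap it, at 31.7% and 4.54%. CCGGAAG, the core that ETS family factors bind, was present at 12.2% of the canonical members and at 1257 of the 27305 genes. The canonical members with the pyrimidine run had a median change of -0.092 (Li-7) and -0.39 (HEP-G2), and the 7 without it -0.12 and -0.22.

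The arrays had like distributions, with medians of all probe sets from 7.03 to 7.17. The 95th percentile of 612 negative control probe sets, used below as the background level, ran from 7.99 (Li-7 mimic) to 8.72 (Li-7 control). Of 12 hepatocyte markers measured, such as ALB, AFP and APOB, 11 lay above background on both HEP-G2 arrays, while in Li-7 0 did on the control array and 2 (APOH and SERPINA1) on the mimic array. All 4 biliary epithelial markers lay above background on every array, KRT7 in HEP-G2 only just (8.44 and 8.35, against 8.35 and 8.20). None of 3 endothelial markers did, and of 4 blood markers CD68 alone did, on the HEP-G2 mimic array by little (8.24 against 8.20). COL1A2 was the stromal marker above background on all arrays, joined in HEP-G2 by ACTA2, which stood at 6.89 and 7.47 on the Li-7 pair and 10.57 and 11.68 on the HEP-G2 pair. The part of these markers in the results below was not tested.

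The ribosomal protein genes gave some of the brightest probe sets. All 45 canonical members lay above background on every array. Their median level was 15.88 on the Li-7 control array and 15.95 on the HEP-G2 control array, above 99.5% of named genes on each. The lowest canonical member on the control arrays was RPL27, at 12.71 and 13.09, and the highest was RPL38, at 17.36 and 17.35. Levels of different genes are set by different probes, so these ranks describe signal, not numbers of messengers.

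With the mimic, RPS28 and RPS15A of the small subunit fell in both lines. Most other members had changes close to 0. In the common test over both lines these were 2 of 56 members tested, both lower, while 0.339% of the 12381 genes tested were called lower. RPL10L was the member that did not pass the filter on low values. No member was called higher, against 0.0808% of all genes (0.42% in either direction), and at an unadjusted p under 0.05 (limma) 0 of 56 were higher and 6 lower. At that threshold 9.75% of all genes tested were higher and 9.71% lower, so the 6 lower members are near the background share. In bulk RNA, fewer cells of a kind and less RNA per cell cannot be told apart.

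RPS28 encodes a small protein near the messenger exit of the small subunit. Its level was 15.90 on the Li-7 control array and 13.48 on the Li-7 mimic array. In HEP-G2 it was 16.07 with the control and 11.50 with the mimic. The control arrays thus lay within 0.17 of each other, both mimic arrays lay below them, and the HEP-G2 mimic value was the lowest of any canonical member on any array. The change was -2.42 in Li-7 (5.36-fold) and -4.57 in HEP-G2 (23.8-fold), where it had the largest fall of all 12381 genes. The mean change was -3.50 (SE 0.48, 2 lines), rank 2 from the lowest, and passed limma's test with Benjamini-Hochberg adjustment over all genes (adjusted p = 0.0445).

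RPS15A, also a protein of the small subunit, gave 15.82 with the control and 13.93 with the mimic in Li-7. The HEP-G2 pair gave 16.46 and 14.63. Each mimic value was below both control values, and the fall was nearly the same in the lines, -1.90 in Li-7 (3.72-fold) and -1.84 in HEP-G2 (3.57-fold). The mean change was -1.87 (SE 0.24, 2 lines; limma's adjusted p = 0.0445), rank 49 from the lowest.

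These calls rest on a model with 1 residual degree of freedom per gene, from the disagreement between the lines and not a spread between cultures. limma moderated this error with 5.85 prior degrees of freedom drawn from all genes. The SEs given are the moderated ones, so they are mostly shared between genes and are not a gene's own spread between the lines. Both calls were lost after cyclic loess (limma's adjusted p = 0.0678 for RPS28 and 0.0665 for RPS15A) and without moderation of the variance (0.657 and 0.570). The RPS28 call was also lost with robust moderation (0.0539). Mean changes after cyclic loess were -3.40 for RPS28 and -1.77 for RPS15A. Ribosomal protein genes have many near-identical processed copies, so probes may be shared with them.

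**Figure D1:**
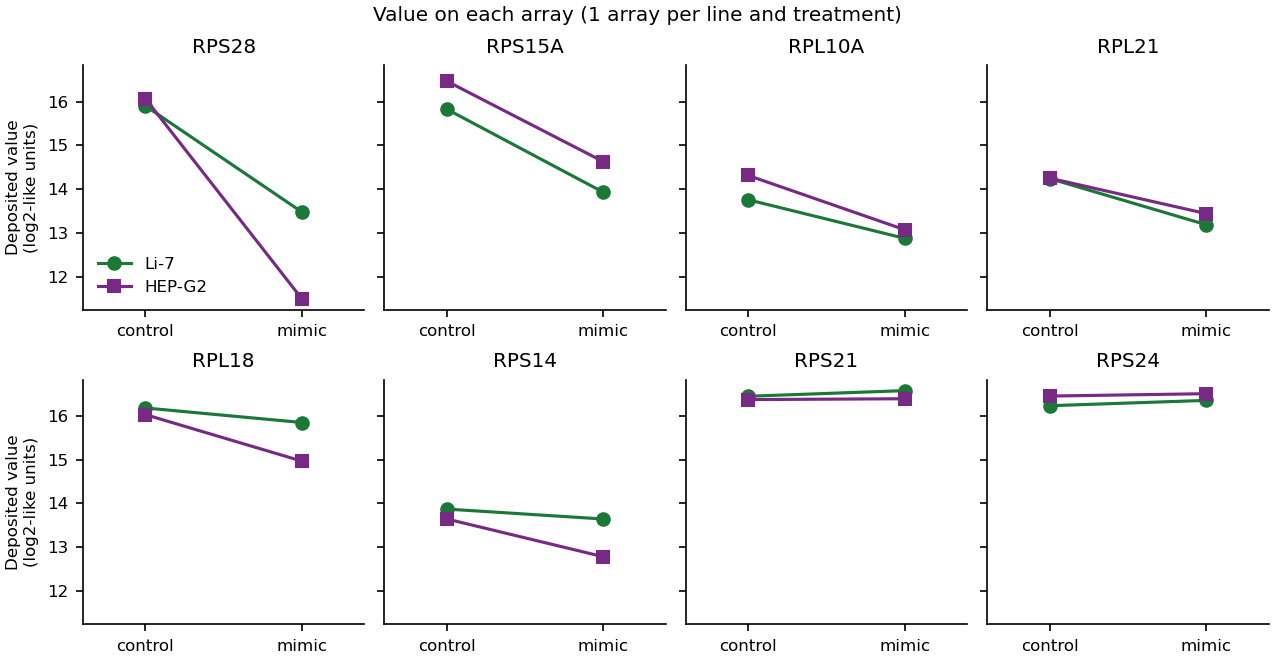
Deposited value (log2-like units, y axis) of 8 ribosomal protein genes on the control and mimic array of Li-7 (green circles) and HEP-G2 (purple squares), each point 1 array. RPS28 and RPS15A drop in both lines, while RPS21 and RPS24 stay between 16.2 and 16.6.

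In the large subunit no gene passed (0 of 34 tested in limma, with 4 lower and 0 higher at an unadjusted p under 0.05, where 9.71% of all genes were lower). RPL10A, a protein of the L1 stalk, came nearest. It stood at 13.76 and 12.88 on the Li-7 pair and 14.31 and 13.07 on the HEP-G2 pair. The changes of -0.88 and -1.24 gave a mean of -1.06 (SE 0.25, limma's adjusted p = 0.109). RPL21 stood at 14.24 and 13.19 on the Li-7 pair and 14.25 and 13.44 on the HEP-G2 pair, with a mean change of -0.93 (SE 0.25, limma's adjusted p = 0.127). For both genes every mimic value lay below every control value. With an intensity trend in the variance model, which called 411 of all genes against 52, both passed (limma's adjusted p = 0.0282 and 0.0327). Neither passed under any other setting tried.

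The probe set named RPL21 calls for care. Its array identifier carries chromosome 10, whereas RefSeq places RPL21 on chromosome 13. It was the only member with such a mismatch, and for 99.96% of named probe sets with a chromosome in the identifier the 2 were the same.

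RPL18 stood at 16.18 with the control and 15.85 with the mimic in Li-7, and the HEP-G2 pair gave 16.03 and 14.96. Its change was larger in HEP-G2 (-1.06, against -0.33 in Li-7), and it did not pass (mean -0.70, SE 0.28, limma's adjusted p = 0.239). RPL29 had nearly equal changes, -0.59 (Li-7) and -0.64 (HEP-G2). Among small subunit genes after the pair that passed, RPS29 (-0.37 in Li-7, -0.73 in HEP-G2) and RPS14 (-0.23 and -0.86) were the lowest by mean change, at -0.55 and -0.54. RPS14 is the gene whose loss causes the anaemia of the 5q- syndrome. RPS6, the substrate of the S6 kinases, followed with -0.29 and -0.78. None of these passed.

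At the other end, RPS24 stood at 16.23 and 16.35 on the Li-7 pair and 16.45 and 16.50 on the HEP-G2 pair. RPS21 stood at 16.45 and 16.57 on the Li-7 pair and 16.37 and 16.39 on the HEP-G2 pair. They were the only canonical members with a higher value under the mimic in both lines, by no more than 0.13. RPL7 (0.14 in Li-7, -0.026 in HEP-G2) was the canonical large subunit gene with the highest mean change, 0.057.

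**Figure D2:**
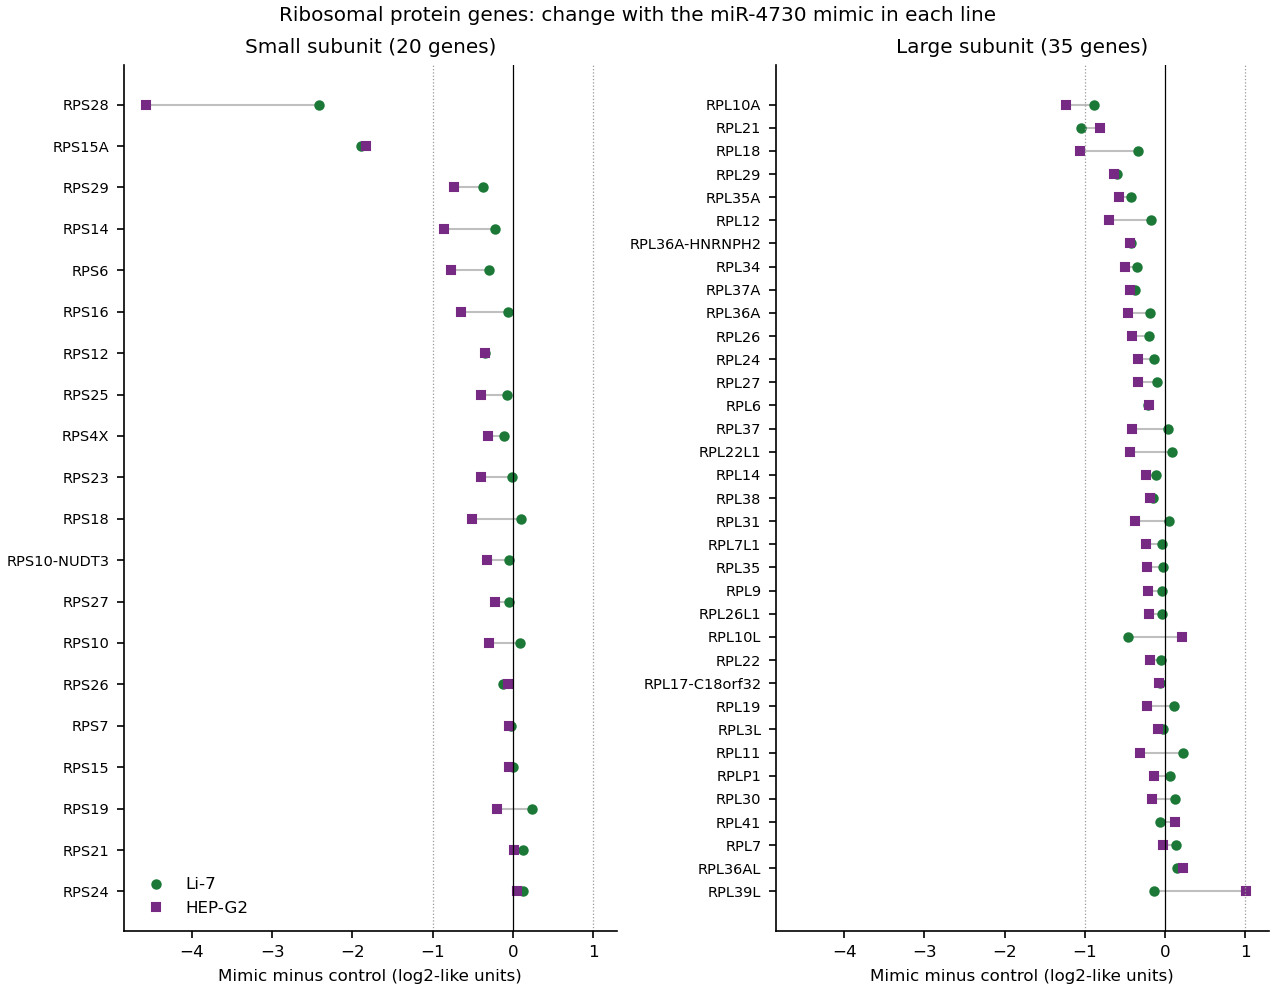
Change with the mimic (mimic minus control, log2-like units, x axis) of each ribosomal protein gene in Li-7 (green circles) and HEP-G2 (purple squares), each from 1 pair of arrays, ordered by mean change; Y-linked genes are not drawn and dotted lines mark 2-fold. RPS28 and RPS15A stand apart, and most purple squares lie left of their green circle.

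Below these larger changes lay a small downward displacement, mainly in HEP-G2. The median change of the 56 members was -0.059 (Li-7) and -0.32 (HEP-G2), beside medians of 0.021 and 0.018 over all genes tested. In HEP-G2 51 of 56 members were lower by any amount, against 48.8% of all genes, and in Li-7 40 were, against 48.2%. Both lines were lower for 38 members (67.9%), against 31.0% of all genes, and both higher for 3, against 34.1%. Members were chosen with such results known, so these counts are a description, and members on the same 4 arrays are not replicates.

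Most members nonetheless stayed within the 2-fold limit. In Li-7 3 members were at least 2-fold lower (RPS28, RPS15A and RPL21; background 4.12%) and 51 had a difference under 0.5. In HEP-G2 4 were at least 2-fold lower (RPS28, RPS15A, RPL10A and RPL18; background 6.28%) and 42 had a difference under 0.5. The change was lower in HEP-G2 than in Li-7 for 48 of 56 members, against 51.6% of all genes. With 1 array per treatment in a line, no test of that contrast was made. After cyclic loess the median in HEP-G2 was -0.17 and that in Li-7 -0.018, and 29 members were lower in both lines. Without RPS28 and RPS15A the medians were -0.31 and -0.053, and 36 of 54 were lower in both.

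**Figure D3:**
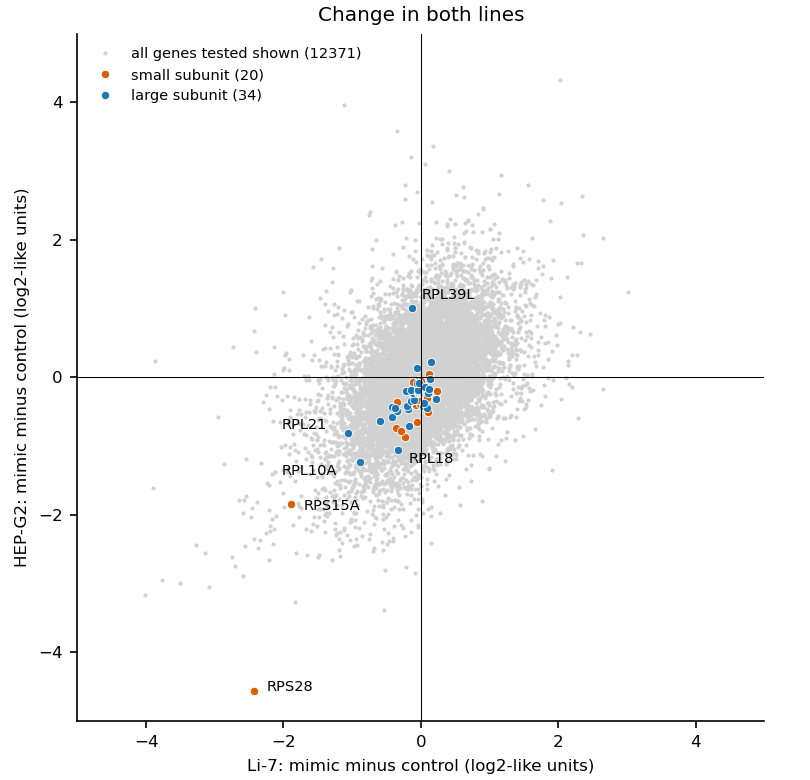
Change with the mimic in Li-7 (x axis) against HEP-G2 (y axis), in log2-like units, with all genes tested in grey, small subunit genes in orange and large subunit genes in blue; Y-linked genes are not drawn. Nearly all ribosomal protein genes lie within a small cloud just below the horizontal axis, with RPS28 at -2.42 and -4.57 far outside it.

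The small and large subunit genes had nearly the same typical change. Canonical small subunit genes had a median of -0.064 (Li-7) and -0.35 (HEP-G2) (19 genes), and canonical large subunit genes -0.13 and -0.34 (26 genes). Medians of the mean change were -0.20 for each subunit. Lower in both lines were 13 of 19 and 18 of 26. What set the small subunit apart in value was RPS28 and RPS15A. Without them its lowest mean change was -0.55, against -1.06 in the large subunit.

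Values of the change in the lines went together. Across the 45 canonical members the changes in Li-7 and HEP-G2 had a Pearson r of 0.888 and a Spearman rho of 0.706, and without RPS28 and RPS15A 0.697 and 0.663. Over all 12381 genes tested the values were 0.469 and 0.439. The lines share no array, but genes on an array are not independent, and the members share their range of signal.

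Dimmer canonical members tended to have the lower mean changes. The mean change against the mean level had a Spearman rho of 0.575 across 45 genes and 0.544 without RPS28 and RPS15A. Among the dimmer genes RPL27 stood at 12.71 and 12.60 on the Li-7 pair and 13.09 and 12.75 on the HEP-G2 pair, a mean change of -0.22, whereas RPL29, as dim, stood at -0.62. At the bright end RPL38 differed from control by -0.15 (Li-7) and -0.19 (HEP-G2). The part of signal level in the changes was not tested.

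**Figure D4:**
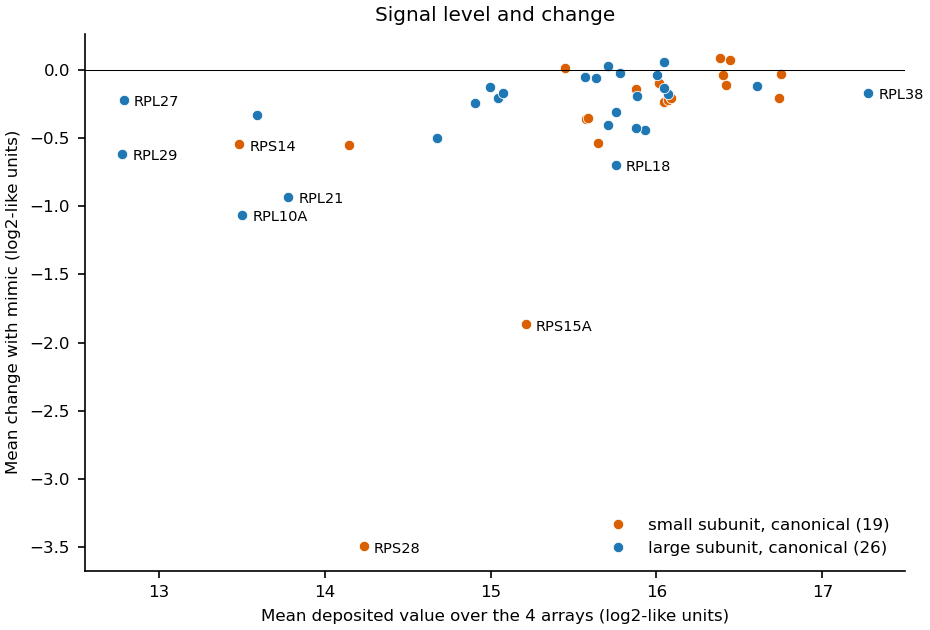
Mean deposited value over the 4 arrays (x axis, log2-like units) against mean change with the mimic (y axis, log2-like units) for the 45 canonical genes, small subunit in orange and large subunit in blue. Genes above about 16 lie close to 0, and the lower changes, apart from RPS28 and RPS15A, sit mostly among the dimmer genes.

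Some members known from disease or for a defined task in translation are given here, picked after their values were seen. RPL11, which with RPL5 and 5S RNA binds the p53 regulator MDM2 when assembly fails, stood at 15.25 and 15.46 on the Li-7 pair and 15.95 and 15.63 on the HEP-G2 pair. RPS19, the gene most often mutated in Diamond-Blackfan anaemia, differed from control by 0.24 (Li-7) and -0.20 (HEP-G2). RPS26, which contacts the messenger upstream of the start codon, differed from control by -0.12 and -0.063. RPLP1, of the stalk that recruits elongation factors, differed from control by 0.060 and -0.14. None of these passed, and RPL11, RPS19 and RPLP1 had opposite signs in the lines.

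The paralogues, taken here by symbol, are related genes, some of which can replace a canonical protein in some tissues. RPL22L1, which can stand in for RPL22, was at 11.39 and 11.48 on the Li-7 pair and 12.21 and 11.77 on the HEP-G2 pair, while RPL22 differed from control by -0.047 and -0.19. RPL36AL was higher with the mimic in both lines (13.51 to 13.66, and 12.79 to 13.01), whereas RPL36A, its X-linked counterpart, was lower in both (14.07 to 13.87, and 13.45 to 12.98). RPL26L1 and RPL7L1 differed from control by no more than 0.24 in size in either line, and neither they nor RPL36AL, RPL36A or RPL22L1 passed.

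RPL39L stood at 7.49 and 7.35 on the Li-7 pair and 3.69 and 4.71 on the HEP-G2 pair. A mimic value 1.01 above the control in HEP-G2 made it the 1 member at least 2-fold higher there (background 5.77%), with 0 such members in Li-7 (3.72%), but all 4 of its values lay under the background level. RPL10L, which was not tested, lay under it on all 4 arrays too. RPL3L lay between 8.04 and 8.30, above background on 2 arrays. The Y-linked RPS4Y1 and RPS4Y2 differed from control by no more than 0.24 in size and are given without levels.

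The readthrough loci overlap ribosomal protein genes, so their probes may read the same messengers, and none of them passed. RPL36A-HNRNPH2 differed from control by -0.43 (Li-7) and -0.44 (HEP-G2), beside -0.19 and -0.47 for RPL36A. RPS10-NUDT3 differed from control by -0.048 and -0.33, beside 0.084 and -0.30 for RPS10. RPL17-C18orf32, at 15.75 and 15.69 on the Li-7 pair and 16.15 and 16.07 on the HEP-G2 pair, hardly moved.

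Between the lines themselves the canonical genes had like levels. On the control arrays 0 of 45 were 2-fold apart, against 35.9% of all genes tested, and 35 were within 0.5. In the line coefficient of the same model 6 of 56 members passed, against 44.9% of all genes. They were 3 higher in Li-7 (background 24.3%) and 3 lower (20.7%). RPS12 was lower in Li-7 (15.36 and 15.02, against 16.16 and 15.81 in HEP-G2; difference -0.80, SE 0.24, limma's adjusted p = 0.0343). RPL36A and RPL30 were higher in Li-7, by 0.75 (SE 0.25, limma's adjusted p = 0.0447) and 0.74 (SE 0.25, limma's adjusted p = 0.0485). RPL30 stood at 16.09 and 16.21 on the Li-7 pair and 15.50 and 15.33 on the HEP-G2 pair.

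RPL39L was higher in Li-7 by 3.22 (SE 0.33, limma's adjusted p = 0.000269), all of it under the background level. The other members that passed were the Y-linked pair. RPS28 (0.91, SE 0.48, limma's adjusted p = 0.166), RPS15A (-0.67, SE 0.24, 0.0615), RPL7 (0.69, 0.0574), RPL36AL (0.68, 0.0587) and RPL22L1 (-0.56, 0.128) did not pass. The RPL36A and RPL30 calls were lost after median centring (limma's adjusted p = 0.0779 and 0.0844) and cyclic loess (0.0529 and 0.0574), and without the filter on low values (0.0542 and 0.0589).

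Genes that build the ribosome had lower medians than its own proteins. Of 47 assembly factors tested, 38 were lower in both lines (80.9%), against 31.0% of all genes tested. Their medians were -0.29 (Li-7) and -0.65 (HEP-G2). AATF fell (12.54 to 10.16 in Li-7, 12.62 to 10.13 in HEP-G2, mean -2.43, SE 0.24, limma's adjusted p = 0.0266). It was the 1 of the 47 called lower, against 0.339% of all genes tested, and none was called higher. At an unadjusted p under 0.05 (limma) 18 of the 47 were lower, against 9.71% of all genes. AATF is a nucleolar factor of small subunit assembly. FBL, the methyltransferase that modifies ribosomal RNA, stood at -1.25 and -2.21, UTP20 at -1.12 and -2.22 and RRS1, under background on the HEP-G2 mimic array, at -1.11 and -2.20, and these did not pass (limma's adjusted p from 0.0737 to 0.0801). The 14 genes of RNA polymerase I and its factors, which transcribe ribosomal RNA, had medians of -0.17 and -0.66, with POLR1G, above background on 1 array, at -1.08 and -1.51 and POLR1E at -0.91 and -1.17.

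In the lists other than assembly no gene passed (limma; at an unadjusted p under 0.05, 10 of 74 mitochondrial ribosome genes, 4 of 31 initiation factors, 4 of 14 polymerase I genes, 2 of 8 chaperones, 1 of 12 regulators and 0 of 7 elongation and release factors, all lower, against 9.71% of all genes). For the mitochondrial ribosome, initiation and regulator lists these counts are near the background share. Mitochondrial ribosomal protein genes, the closest relatives in function, had medians of -0.14 (Li-7) and -0.23 (HEP-G2). In both lines 40 of 74 were lower (54.1%), against 31.0% of all genes tested. MRPS12 stood at -0.99 and -1.57, from a level above background on the HEP-G2 control array alone, and MRPS17 at -0.69 and -1.07. Initiation factors had medians of -0.10 and -0.34, led by PABPC4, a poly(A) binding protein, at -1.49 and -2.58, and EIF4H, a helicase cofactor, at -1.04 and -1.50. Elongation and release factors had medians of -0.077 and -0.11.

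The list of 8 ribosomal protein chaperones shares LTV1 with the assembly list. Of the 8, 7 were lower in both lines, against 31.0% of all genes tested. They included GRWD1, which serves RPL3 (-0.88 and -1.23), and HEATR3, which serves RPL5 and RPL11 (-1.08 and -0.73). TSR2, the chaperone of RPS26, stood at -0.60 and -0.46. Among 12 regulators the medians were 0.056 (Li-7) and -0.31 (HEP-G2). MYC, which drives ribosome production, stood at 12.15 and 12.27 on the Li-7 pair and 12.50 and 11.14 on the HEP-G2 pair, and EIF4EBP1, a translation repressor under mTOR, at 11.36 and 11.40 on the Li-7 pair and 11.81 and 9.84 on the HEP-G2 pair. FAU, which encodes the ribosomal protein RPS30 as a fusion under another symbol, differed from control by 0.070 and -0.28.

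**Figure D5:**
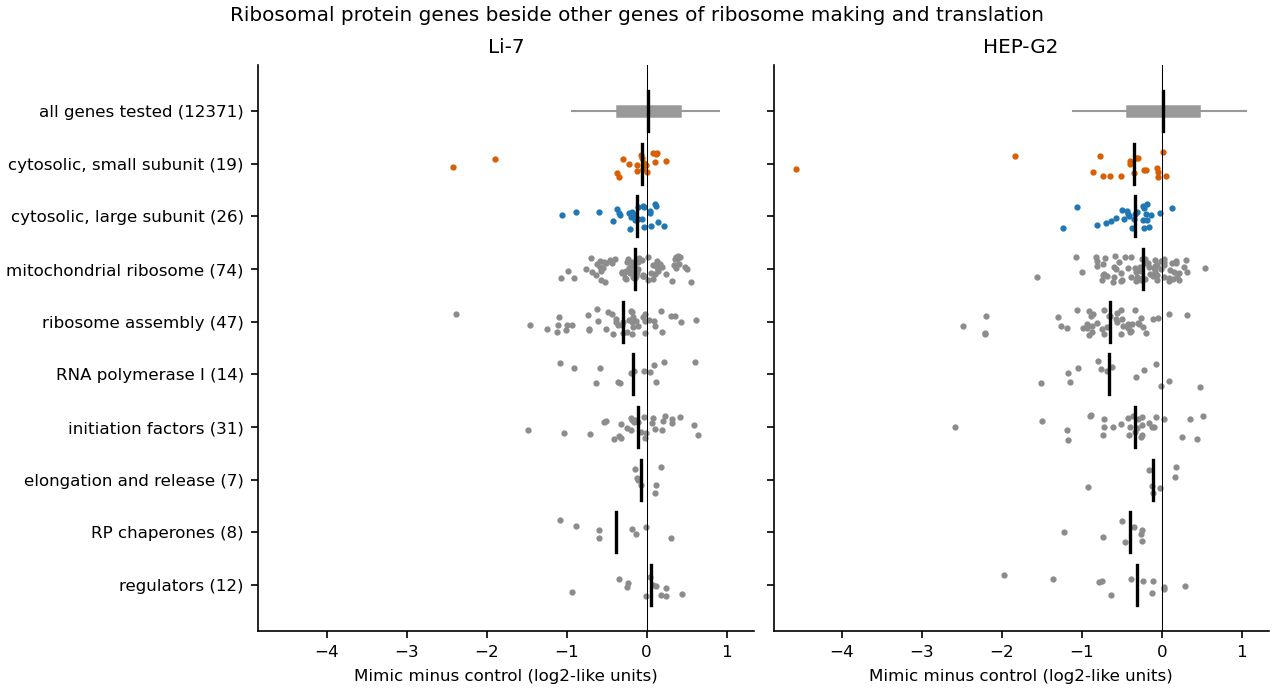
Change with the mimic (mimic minus control, log2-like units, x axis) in Li-7 (left) and HEP-G2 (right) for canonical ribosomal protein genes and related lists, each point a gene and each black bar a median, with the number of genes in brackets; for all genes the thick bar spans the quartiles and the thin line the central 90%, without Y-linked genes. In HEP-G2 the assembly list and polymerase I have the lowest medians, -0.65 and -0.66.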

How the data were processed

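The deposited tables hold 1 summarised log2 value per probe set and array, as far as the values show. Affymetrix Expression Console and Transcriptome Analysis Console are named per the submitters' processing notes, while the sources used here give neither the background correction nor the normalization or log base. Of 24351 probe sets, 17709 carried 1 gene name in the platform annotation, and all of these matched RefSeq (GRCh38.p14), whose symbols were used. The brightest probe set stood for each gene. Genes whose mean reached the 30th percentile of named genes (4.90) were tested, which left 12381.

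All 4 arrays entered a linear model of treatment plus line, fitted with limma 3.58.1 in R 4.3.3 (lmFit, eBayes, 5.85 prior degrees of freedom), with Benjamini-Hochberg adjustment and a threshold of 0.05. A check of the code on simulated arrays took its variances from this fit and gave both lines the same change, so it lends no support to the calls. Within a line, differences of single arrays have no test and are counted at 2-fold. Nothing in the labels describes separate cultures beyond the 4 groups.

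The members, lists and tests were chosen with earlier results of these data known. Named members were those that passed or moved 2-fold in a line, the 3 lowest and highest of each subunit, the 5 with the most unequal response, the 5 with the largest line difference each way, and all paralogues. For related lists, genes that passed and up to 4 with the largest mean change could be named. Genes outside these rules were picked with their values in view. Alternatives were other normalizations, filters, probe-set summaries, variance models and member sets. Promoter windows came from RefSeq start sites.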

Additional observations from a re-analysis of the deposited data

Results flagged for a closer look

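Among the members named by rule, the Y-linked pair left aside, 4 of those tested had changes of opposite sign in the lines. The change in HEP-G2 minus that in Li-7 was 1.15 for RPL39L, whose values lay under the background level on all arrays. It was -0.53 for RPL22L1, -0.29 for RPL30 and -0.17 for RPL7. Each line had 1 pair of arrays, and these differences were not tested.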

How the results depend on the processing

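Over all genes the common test called 52 as deposited, 465 after quantile normalization (58.7% lower, against 80.8%) and 23 after cyclic loess. It called 366 with a filter at the median gene (65.3% lower), 411 with an intensity trend (61.6% lower), 49 with robust moderation and 1 without moderation. Of the ribosomal protein genes, 2 were called as deposited, and 0 after cyclic loess and without moderation (4 and 5 of 56 at an unadjusted p under 0.05 in limma, where 19.6% and 7.91% of all genes were). With robust moderation 1 was called (6 of 56 at that unadjusted threshold, beside 19.4% of all genes). With an intensity trend 4 were called (15 of 56 at that threshold, beside 21.2% of all genes). For the line difference, 5563 of 12381 genes tested and 6 of 56 members were called. With an intensity trend these were 5879 genes and 19 members. At an unadjusted p under 0.05 in limma, 10 of 56 members differed between the lines as deposited, beside 52.5% of all genes. With the trend 27 of 56 did, beside 54.1% of all genes. Without moderation 1 gene and 0 members were called (11 of 56 members at an unadjusted p under 0.05, beside 19.9% of all genes). RPL30's mean change of -0.023 turned to 0.021 after quantile normalization and 0.076 after cyclic loess. The medians of the members stayed below 0 under every normalization, filter, probe-set summary and member set tried. They ran from -0.018 (cyclic loess) to -0.11 (canonical members) in Li-7 and from -0.17 to -0.34 in HEP-G2. The median mean change of each subunit stayed below 0 as well. The count lower in both lines ran from 29 to 38. That count under alternatives, and all values without RPS28 and RPS15A, were chosen after seeing the data. The line term of the model already pairs mimic with control within each line, and the labels give no replicate numbers for a further block. Canonical members lay above background on all arrays, so signal over background limits the low paralogues RPL39L, RPL10L and RPL3L.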
